A study of Mus musculus with 22 samples.

Results

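The nuclear genes for the structural subunits of oxidative phosphorylation were followed across all sample groups of the series. Members were chosen by their mapped gene symbol: Ndufa, Ndufb, Ndufc, Ndufs or Ndufv followed by a digit, Sdha to Sdhd, Uqcr, Cox4i, Cox5, Cox6, Cox7, Cox8 or Atp5. Pseudogenes and assembly factors were left out, and a gene was kept if its mean over the 22 libraries was at least 1 CPM, a gene's counts scaled to a common library total. The rule matched 97 symbols, 85 of them coding, and 81 coding genes of the 78298 genes in the count tables passed. By symbol prefix they fall into complex I with 37 genes, complex II with 4, complex III with 8, complex IV with 15 and complex V with 17. Ndufa4 and its relative Ndufa4l2 thus count as complex I and Atp5s as complex V. The assignment was not checked against the protein composition of the complexes. The coding genes under the limit were Cox7b2, Cox8c, Cox4i2 and a second gene ID named Atp5o. The lowest member kept was Cox7a1, with a mean of 4.35 CPM. Cox7a1, Cox8b and Ndufa4l2 passed the limit only through the allografts, and Cox6b2 only through the fresh NK libraries.

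The respiratory chain sits in the inner mitochondrial membrane. Complex I takes electrons from NADH, complex II from succinate, complex III passes them from ubiquinol to cytochrome c, and complex IV hands them to oxygen; complex V, the ATP synthase, uses the proton gradient to make ATP. Complex II is made of nuclear subunits only, whereas the other complexes also hold subunits that mitochondrial DNA encodes. Some nuclear subunits have a second gene used in muscle, testis or hypoxic cells. The tables list 37 mitochondrially encoded genes, each with a count of 0 throughout, so the description is limited to nuclear subunits.

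Polyadenylated mouse RNA was sequenced in 22 libraries of 9 groups. Spleens from mice of both sexes gave natural killer (NK) cells, the lymphocytes that kill transformed cells without prior priming. These were taken after 24 h with interleukin-2 (IL-2, a cytokine that sustains them) in monoculture, freshly isolated without treatment, or after 24 h with IL-2 together with Panc02, a mouse pancreatic cancer cell line. Each of these had 2 libraries per sex. Panc02 allograft tumours had 4 libraries from female and 4 from male hosts, and Panc02 cultured alone had 2. The labels give no strain, age or allele. Total counts ranged from 13025549 to 46842646 per library.

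The cell-type labels were set beside marker genes, and the sex labels were not checked here. All 12 NK markers were detected in every fresh and monoculture library, with summed levels of 12214 to 14664 CPM. In co-culture the NK markers stood at a median of 1.87% to 3.66% of their monoculture level, so these libraries, labelled as NK cells, hold mostly Panc02 RNA; the labels do not say that the cells were separated. Markers of skeletal muscle summed to 899 to 44691 CPM in allografts, against 4.18 and 4.68 CPM in cultured Panc02. The highest were allografts 4 and 2 of female hosts and allograft 7 of male hosts. Macrophage markers summed to 2322 to 4268 CPM in allografts, against 16.1 and 16.6 CPM in cultured Panc02. Fibroblast markers summed to 1160 to 2238 CPM in allografts, against 0.95 and 1.22 CPM in cultured Panc02, and endothelial markers to 146 to 409 CPM, against 0.095 and 0.171 CPM. Epithelial markers stood lower in allografts (774 to 1818 CPM) than in cultured Panc02 (4428 and 4482 CPM). The part of these cell types in the allograft results was not tested. Markers of erythroid cells summed to 247 to 386 CPM in monoculture and 1182 to 1717 CPM in fresh cells. Per the labels' protocols, sorted NK cells were extracted on oligo(dT) beads and cell experiments and tumours with a phenol reagent, and libraries were made from 500 ng for allografts and 100 ng for cells. These differences run with the groups and cannot be told apart from them.

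Summed over all 81 genes, subunit transcripts made up 0.678% of counts in female and 0.715% in male monocultures, against 0.778% and 0.76% in fresh cells of the same sexes. Co-cultures held 0.99% and 0.999% with female and male NK cells, against 0.991% in cultured Panc02. Allografts held 1.26% in female and 1.05% in male hosts. In CPM, the sums were 12313 to 12954 in the 4 tumours of female hosts and 9448 to 11250 in the 4 of male hosts, so these groups did not overlap. In bulk samples, fewer cells of a type and less RNA per cell cannot be told apart, and a sum relative to all counts also moves with what else a library holds. Library sizes were also rescaled by TMM over all libraries. Male monocultures then stood at 6929 and 7041 (mean 6985) and male fresh cells at 7054 and 6648 (mean 6851), so they overlapped. Female monocultures stood at 6527 and 6331 (mean 6429), below female fresh cells at 6669 and 6940 (mean 6804.5).

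**Figure D1:**
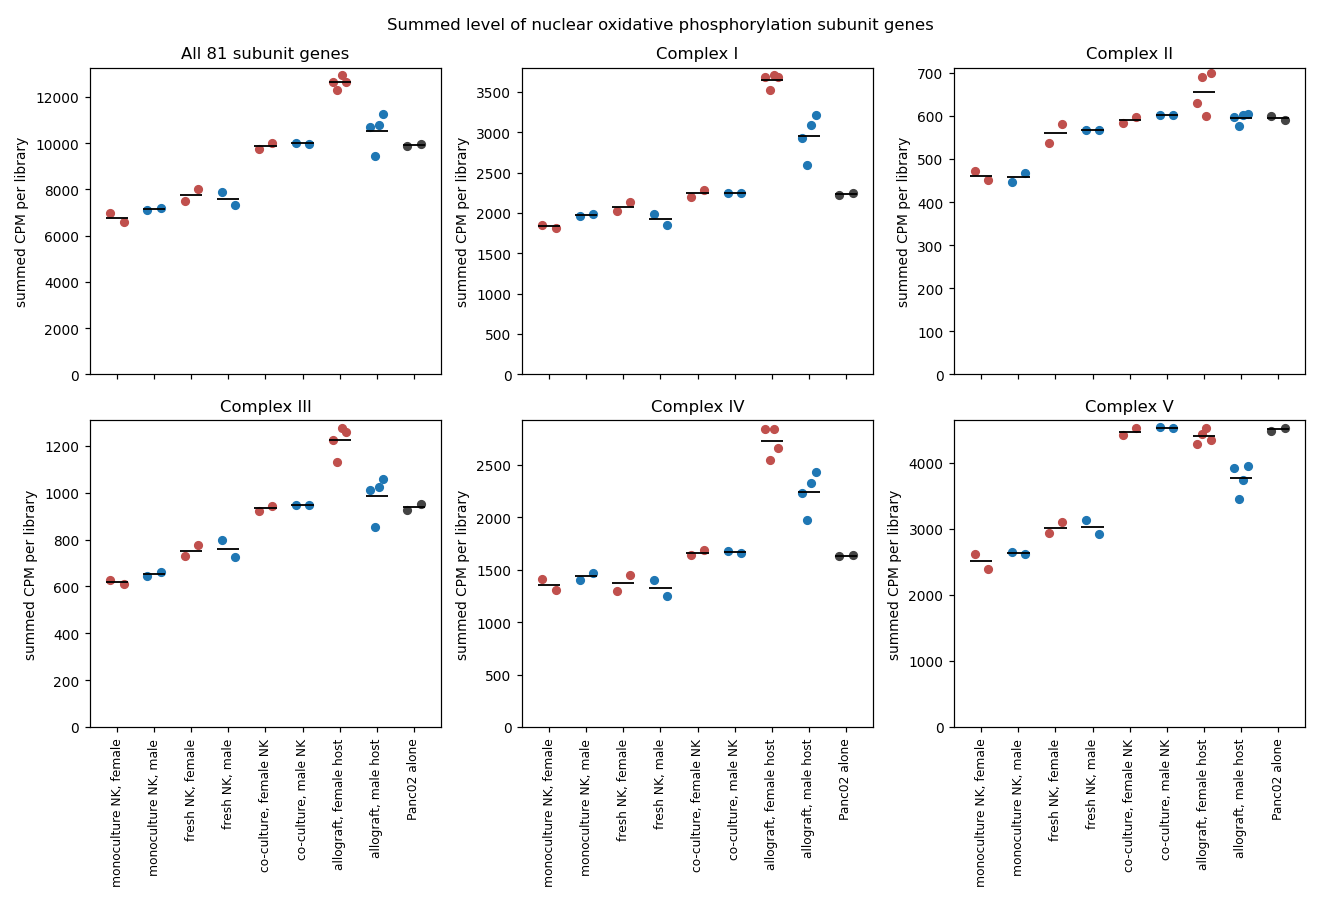
Summed CPM of the subunit genes in each library, for all 81 genes and by complex; each point is 1 library, the line is the group mean, and axes start at 0. Female-host allografts (12313 to 12954 CPM over all genes) lie above male-host allografts (9448 to 11250), and NK libraries lie below Panc02 libraries.

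The complexes did not move as a block between groups. Complex V summed to 2506 ± 154 CPM in female monocultures and 2634 ± 12.9 in male monocultures, against 3015 ± 117 in female and 3022 ± 146 in male fresh cells (SD, n = 2 each). Complex IV summed to 1358 ± 69.8 CPM in female and 1436 ± 41.8 in male monocultures, against 1372 ± 106 and 1329 ± 106 in fresh cells of the same sexes. The sum of complex V was thus lower in all 4 monocultures than in all 4 fresh libraries, while the sums of complex IV overlapped. A sum follows its most abundant genes, in complex V Atp5b and Atp5a1 (means of 1024 and 664 CPM over the 22 libraries). In the tests by gene given below, 4 of its 17 members rose and 5 fell, with a median log2 fold change of 0.001. In allografts, complex V summed to 4397 ± 104 CPM in female and 3763 ± 229 in male hosts (SD, n = 4 each), against 4504 ± 23.4 in cultured Panc02 (SD, n = 2). Complex I summed to 3649 ± 86.9 and 2955 ± 269 CPM in those hosts, against 2233 ± 24.7 in cultured Panc02. Complex I sums of allografts and cultured Panc02 did not overlap, while those of complex V overlapped in female hosts. By gene, 7 of the 17 members of complex V rose in allografts and 1 fell. These sums are shares of each library's counts and carry no test.

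The first comparison asks how 24 h of culture with IL-2 changes subunit transcripts of NK cells. Monoculture moved subunits of the same complex in opposite directions. Of 80 members tested, 16 rose and 21 fell against fresh cells, with edgeR's quasi-likelihood test at an adjusted p below 0.05. Over all 21414 genes tested, 22.1% rose and 21.1% fell, so the members' shares of 20% and 26.2% lie near the background. The median log2 fold change of the members was 0.01, the same as over all genes. In 8 members all monocultures lay above all fresh libraries in CPM and in 19 below, against 13.7% and 21.2% of all genes.

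Of the 7 core subunits of complex I, 4 fell and 0 rose, with a median log2 fold change of -0.18. Of the 12 core subunits of the other complexes, 7 fell and 1 rose (median -0.23), beside 21.1% lower and 22.1% higher over all genes tested. Ndufs1, which holds iron-sulfur clusters, measured 80.8, 85.6, 89.0 and 90.4 CPM in monocultures, against 98.2, 104, 117 and 114 CPM in fresh cells. Its log2 fold change was -0.22 ± 0.053 (SE, adjusted p = 0.00284), and the libraries did not overlap. Ndufv1 and Ndufv2, which bind the flavin and an iron-sulfur cluster, fell by 0.23 and 0.18 on the log2 scale. In complex II, the flavoprotein Sdha fell by 0.28, the iron-sulfur protein Sdhb by 0.205 and the membrane anchor Sdhd by 0.35. Its other anchor, Sdhc, rose by 0.36 ± 0.079 (adjusted p = 0.00134), so the 4 genes of this complex split.

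Complex III held the sharpest falls among widely expressed members. Uqcr11, a small subunit, measured 29.1, 32.1, 32.8 and 35.7 CPM in monocultures and 60.9, 62.2, 62.2 and 52.9 CPM in fresh cells. The groups lie far apart, with a log2 fold change of -0.77 ± 0.068 (adjusted p = 8.51e-08). Uqcrc1, a core protein of the complex, measured 122, 132, 123 and 131 CPM in monocultures and 220, 210, 189 and 184 CPM in fresh cells (log2 fold change -0.55 ± 0.053, adjusted p = 1.94e-07). Uqcrc2 and the Rieske protein Uqcrfs1 did not pass the test (log2 fold changes 0.02 and 0.12). The ubiquinone-binding Uqcrq went the other way, with a log2 fold change of 0.43 ± 0.080 (adjusted p = 0.000332). In complex V, the catalytic beta subunit Atp5b measured 615, 542, 598 and 585 CPM in monocultures and 798.4, 863, 877 and 834 CPM in fresh cells, which did not overlap. It fell by 0.425 on the log2 scale (SE 0.049, adjusted p = 2.14e-06), and the alpha subunit Atp5a1 by 0.26. The delta subunit Atp5d rose by 0.37 ± 0.055. The genes Atp5g1, Atp5g2 and Atp5g3 encode the same c-ring protein, and they split: Atp5g1 and Atp5g3 fell by 0.38 and 0.19, while Atp5g2 rose by 0.29. Without fresh male library 4 the calls of Atp5g1 and Atp5g3 were lost (adjusted p = 0.0809 and 0.106), as were that of Atp5g1 without monoculture male library 4 (0.0501) and that of Atp5g3 without fresh female library 2 (0.148).

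Of the 16 members that rose, 7 belonged to complex I, and all of these were accessory subunits or Ndufa4l2. Ndufb4 measured 28.8, 26.2, 27.2 and 25.8 CPM in monocultures, against 11.8, 16, 23.6 and 20.6 CPM in fresh cells, with fresh female cells lowest. Its log2 fold change was 0.735 ± 0.11 (adjusted p = 3.95e-05). Ndufa7, Ndufa13 and Ndufb11 rose by 0.57, 0.54 and 0.53 on the log2 scale, each with all 4 monocultures above all 4 fresh libraries. The accessory genes Ndufa10, Ndufa12 and Ndufs6 fell by 0.42, 0.19 and 0.36. Ndufb2 and Ndufb8 fell by 0.508 and 0.485, both at low levels (5.68 to 13.4 CPM in the 8 libraries). Ndufb2 lost its call without fresh female library 2 (adjusted p = 0.0767) and without fresh male library 4 (adjusted p = 0.0886). In complex IV, Cox7a2l, a factor of respiratory supercomplexes, rose by 0.49 ± 0.061, and Cox5b fell by 0.35 ± 0.059. Cox6b1 was called higher (0.18 ± 0.059, adjusted p = 0.0192), a call lost with median-ratio scaling (adjusted p = 0.103), without a filter on low counts (0.121), with DESeq2 (0.121) and without any of 5 libraries (0.0687 to 0.338): both female monocultures, male monoculture 5, fresh female 1 and fresh male 5.

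**Figure D2:**
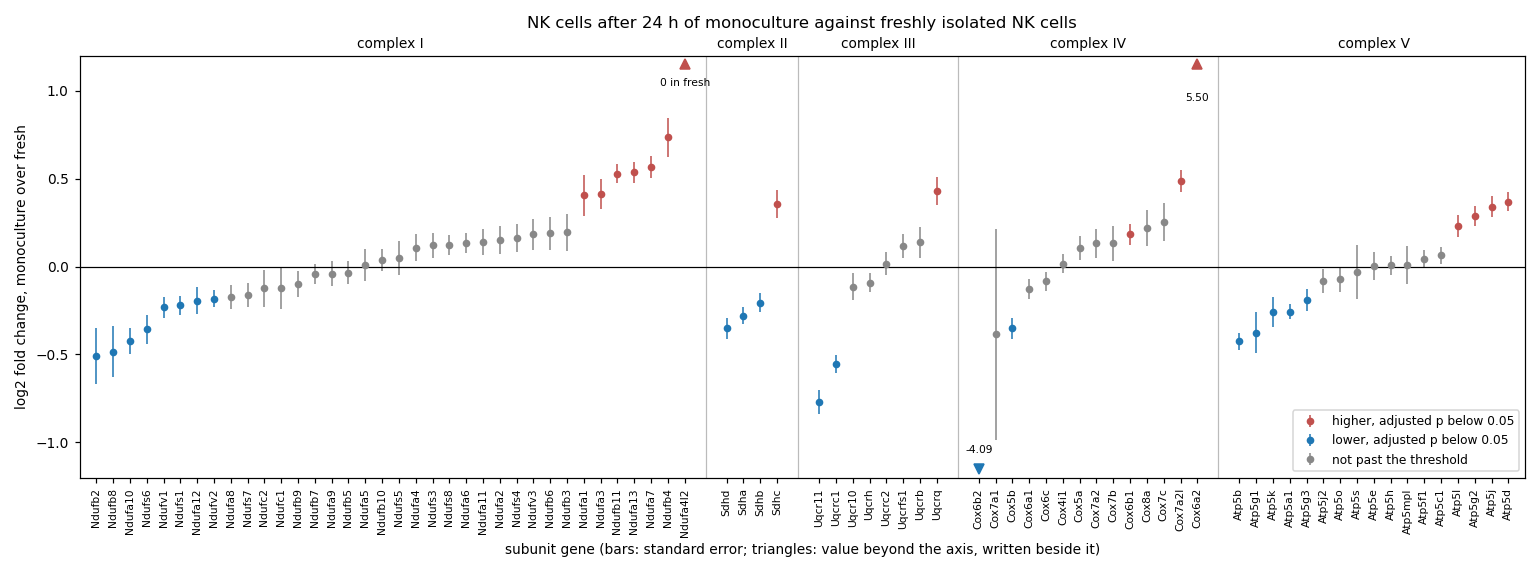
Log2 fold changes of tested members in NK monocultures over fresh NK cells, by complex and sorted, with SE bars. Red points rose, blue points fell and grey points did not pass the threshold; Cox6a2 (5.50) and Cox6b2 (-4.09) lie beyond the axis, and Ndufa4l2 is at 0 in fresh cells.

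Gene lists around the chain moved in part with the core subunits, beside 22.1% higher and 21.1% lower over all genes tested. Of 16 genes of the citrate cycle, which feeds the chain with electrons, 9 fell and 1 rose, with a median log2 fold change of -0.23. Mdh2, Idh3a and Suclg1 fell by 0.415, 0.44 and 0.42. Of 13 carriers and electron donors, 7 fell and 0 rose, among them the adenine nucleotide carrier Slc25a4 (-0.68 ± 0.061) and the outer membrane channel Vdac1 (-0.51 ± 0.058). Of 51 tested assembly factors of complexes I to V, 11 rose and 12 fell, near those shares. Of 16 regulators of mitochondrial gene expression, 6 rose and 3 fell; the coactivator Ppargc1a rose by 2.13 ± 0.17 (adjusted p = 2.13e-08). For scale, 61 of 74 cytosolic ribosomal protein genes rose, and 28 of 78 mitochondrial ribosomal protein genes fell while 8 rose; these lists were added after their values were seen.

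Among members detected in both groups, the largest called changes were those of 2 isoforms of complex IV with restricted expression. Cox6a2, known as the heart and skeletal muscle form of subunit 6a (chromosome 7, 127804607 to 127805559, GRCm39), measured 77.6, 63.6, 80.1 and 74.2 CPM in monocultures. In fresh cells it measured 3.43, 0.921, 0.772 and 1.48 CPM. All monocultures lie above all fresh libraries, with a log2 fold change of 5.50 ± 0.37 (adjusted p = 8.13e-06). Its widely expressed partner Cox6a1 measured 126, 122, 122 and 128 CPM in monocultures and 146, 158, 151 and 131 CPM in fresh cells, and did not pass the test (-0.13 ± 0.057). Summed skeletal muscle markers were 8.79 to 10.5 CPM in monocultures (5 to 8 of the 15 markers at 0) and 9.87 to 13.7 CPM in fresh cells, and Cox8b, another muscle isoform, was at 0 in all 8 libraries.

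Cox6b2, known as the testis form of subunit 6b (chromosome 7, 4754791 to 4756093, GRCm39), went the other way. It measured 1.91, 0.941, 1.28 and 1.48 CPM in monocultures, against 22.8, 25, 24.5 and 25.7 CPM in fresh cells. The fresh values lie close together and far above the monocultures (log2 fold change -4.09 ± 0.22, adjusted p = 3.48e-10). Cox6b2 passed the CPM limit only through the fresh libraries, so this difference is not independent of its choice as a member. Summed erythroid markers also stood lower in monocultures than in fresh cells (247 to 386 and 1182 to 1717 CPM), as did platelet markers (33.4 to 76.5 and 238 to 437 CPM), dendritic cell markers (9.44 to 13.2 and 84.9 to 105 CPM) and B and plasma cell markers (4.22 to 10.2 and 36.8 to 107 CPM). The part of these cell types in this and the other differences between monoculture and fresh cells was not tested. The sums are not specific to a cell type. Cultured Panc02 held 411 and 428 CPM of erythroid markers, with 7 of 14 at 0. Its B and plasma cell markers summed to 769 and 773 CPM, with 4 of 7 at 0. Cox6b1, the widely expressed form, measured 122 to 143 CPM in monocultures and 109 to 133 CPM in fresh cells. Ndufa4l2, the hypoxia-inducible relative of Ndufa4, had 66 counts over the 4 monocultures and 0 over the 4 fresh libraries. Against a floor of 3 counts over the fresh group its monoculture mean was at least 16.8-fold higher, at levels of only 0.188 to 0.802 CPM. Floors and counting intervals cover counting error only, and most fragments were counted as a pair of reads, so such bounds may be too high.

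**Figure D3:**
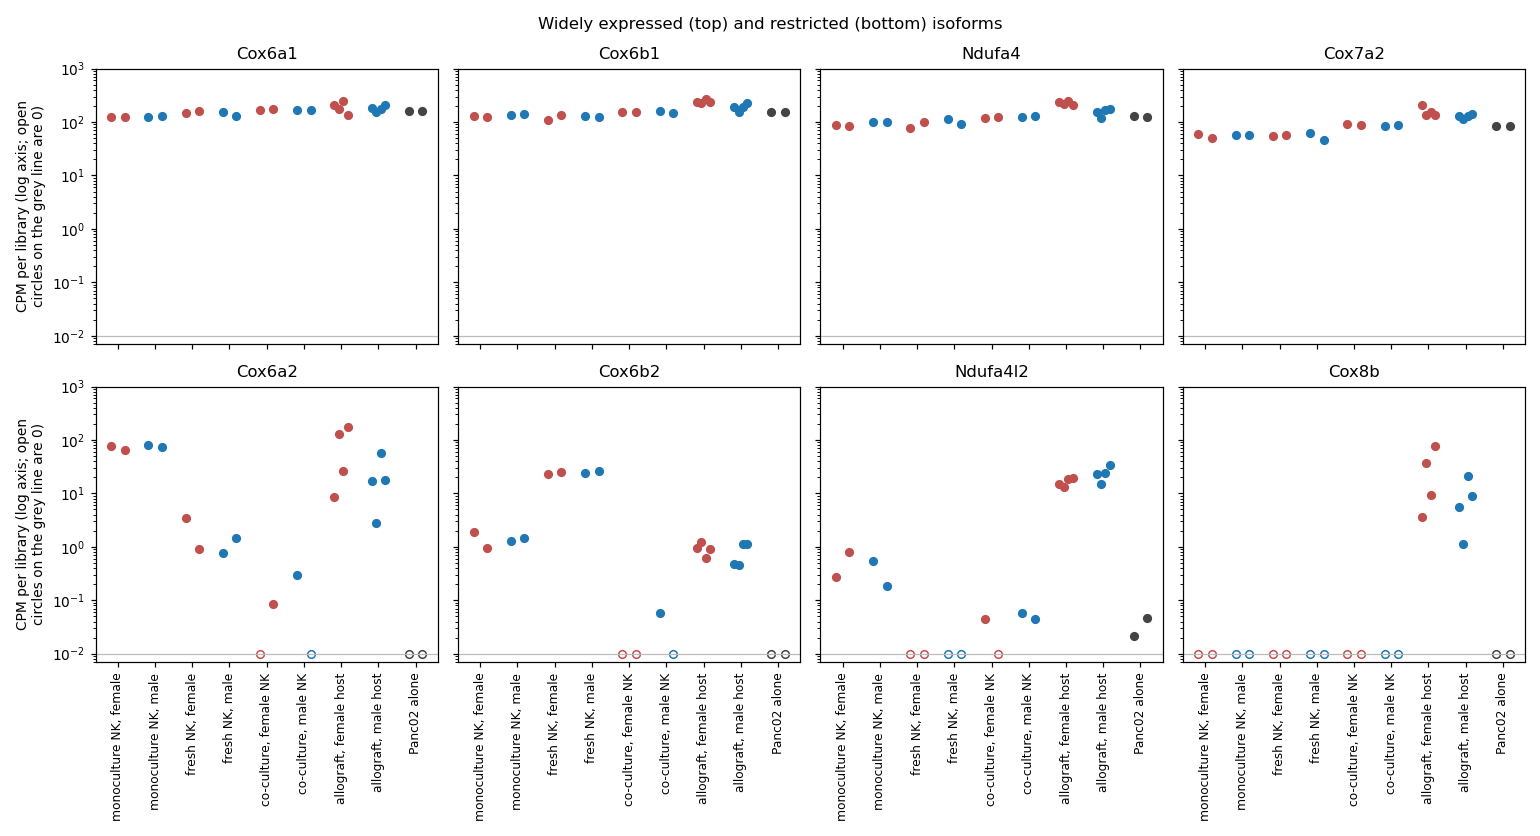
CPM of 4 widely expressed subunits (top) and 4 restricted isoforms (bottom) in each library on a log axis; open circles on the grey line mark libraries with 0 counts. Cox6a2 lies at 63.6 to 80.1 CPM in monocultures and 0.772 to 3.43 in fresh cells, Cox6b2 shows the opposite, and Ndufa4l2 and Cox8b are highest in allografts.

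Promoter sequence was set beside these opposite movements, since nuclear respiratory factor 1 (NRF1) and ETS-family factors such as GABP are known regulators of subunit genes. Windows of 300 bases, from 250 before to 50 after the RefSeq start (GRCm38.p6), were at hand for 65 members. The NRF1 core GCATGCGC was found on either strand in 10 of these 65 genes (15.4%), against 3.05% of 27025 genes with a window. The ETS core CCGGAAG was found in 16 of them (24.6%), against 9.93% of all. The CCAAT box was found in 43.1% of member genes against 41.1% of all, CAGCTG in 9.23% against 18.3%, and ACGTG in 24.6% against 21.8%. Split by the call in monoculture, the NRF1 core lay in 2 of 12 members that rose, 4 of 18 that fell and 4 of 34 that did not pass the test. The ETS core lay in 3, 4 and 9 of these members. Genes that rose and genes that fell thus both hold these letters. ACGTG, the core of the hypoxia response element, lay in 6 members that rose, 5 that fell and 4 that did not pass the test. The windows of 2 members that fell, 1 that rose and the strongly lower Cox6b2 are shown, 5′ to 3′ on the gene's strand, with both cores in capitals.
Uqcr11: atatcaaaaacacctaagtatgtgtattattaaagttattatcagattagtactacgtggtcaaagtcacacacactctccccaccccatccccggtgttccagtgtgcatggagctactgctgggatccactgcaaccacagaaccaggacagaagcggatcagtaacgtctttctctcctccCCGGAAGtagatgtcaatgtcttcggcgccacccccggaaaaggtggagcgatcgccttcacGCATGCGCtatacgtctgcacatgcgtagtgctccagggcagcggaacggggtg
Uqcrc1: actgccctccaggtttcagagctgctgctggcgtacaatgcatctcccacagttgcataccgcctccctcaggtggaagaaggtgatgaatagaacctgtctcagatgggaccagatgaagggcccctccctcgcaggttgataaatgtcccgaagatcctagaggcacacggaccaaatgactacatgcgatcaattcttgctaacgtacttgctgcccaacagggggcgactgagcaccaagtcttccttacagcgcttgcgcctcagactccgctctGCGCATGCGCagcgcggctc
Atp5g2: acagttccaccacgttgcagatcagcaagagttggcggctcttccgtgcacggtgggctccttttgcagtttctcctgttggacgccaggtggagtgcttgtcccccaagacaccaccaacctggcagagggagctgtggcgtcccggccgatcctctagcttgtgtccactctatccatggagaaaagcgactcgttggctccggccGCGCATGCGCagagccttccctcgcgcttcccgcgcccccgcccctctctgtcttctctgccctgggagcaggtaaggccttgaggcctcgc
Cox6b2: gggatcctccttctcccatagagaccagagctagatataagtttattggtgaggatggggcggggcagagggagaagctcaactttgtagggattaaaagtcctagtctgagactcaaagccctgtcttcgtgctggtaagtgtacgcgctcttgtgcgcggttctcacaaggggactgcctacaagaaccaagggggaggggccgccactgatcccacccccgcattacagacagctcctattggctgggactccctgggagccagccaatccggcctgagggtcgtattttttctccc
The windows are chr10:80406772-80407071 (minus strand), chr9:108936398-108936697 (plus), chr15:102670998-102671297 (minus) and chr7:4753045-4753344 (minus), in that order. Uqcr11 holds 1 NRF1 core and 1 ETS core. In Uqcrc1 and Atp5g2 the 10 capitals hold the NRF1 core on both strands, as 2 overlapping matches. Neither core was found in the Cox6b2 window. A match is a stretch of letters and was not tested for binding.

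The next comparisons ask whether subunit transcripts differ between NK cells of female and male mice. In fresh cells, female libraries were higher in 8 and lower in 10 of 80 members, against 4.42% higher and 5.61% lower over all genes tested. The libraries of the sexes did not overlap in 27 members with female cells above and 15 with female cells below, against 25.8% and 24.4% of all genes. Ndufb7, an accessory subunit of complex I, measured 132 and 122 CPM in female and 78.6 and 75.9 CPM in male fresh cells (log2 fold change 0.70 ± 0.079, adjusted p = 0.000151). Atp5e, the epsilon subunit of the synthase, measured 118 and 102 CPM in female and 77.6 and 59.4 CPM in male cells (0.67 ± 0.11, adjusted p = 0.00181). Ndufa2 and Cox7a2l were also higher in female cells, by 0.605 ± 0.11 and 0.47 ± 0.087. In the other direction, Ndufb4 measured 11.8 and 16 CPM in female and 23.6 and 20.6 CPM in male cells (-0.71 ± 0.16, adjusted p = 0.011). Uqcrc2, a core protein of complex III, fell by 0.53, the accessory Ndufa12 by 0.51 and the anchor Sdhc by 0.50 in female against male cells. Complexes II and III held only calls in the lower direction (2 each), and complex V held 4 in each direction.

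These fresh-cell counts rest on few libraries, and in most of the settings below the counts over all genes moved as well. Without fresh female library 1, 3 members were higher and 1 lower; of the 8 members named by the largest change, Ndufb4 (adjusted p = 0.16), Sdhc (0.142), Ndufa12 (0.0726), Cox7a2l (0.07) and Ndufa2 (0.069) lost their calls. Without fresh female library 2 the counts were 8 and 16, without fresh male library 4 they were 8 and 3, without fresh male library 5 they were 4 and 7, and without monoculture female library 2 they were 6 and 17. In the 4 fresh libraries alone they were 5 and 4. Over all genes, 645 were called higher and 695 lower in that setting, against 947 and 1202 in the main fit.

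After 24 h with IL-2, no member passed the test between female and male monocultures (0 of 80, and 0 by DESeq2). Of all genes, 0.056% were called higher and 0.0514% lower (0.107% in all). At an unadjusted p below 0.05 in edgeR's test were 10 members, beside 1468 of all 21414 genes tested. Still, 73 of 80 members had a negative log2 fold change, with a median of -0.13 against -0.03 over all genes, of which 41.3% were positive. Other lists leaned the same way. Positive were 1 of 74 cytosolic ribosomal protein genes (median -0.147), 12 of 78 mitochondrial ones (-0.119) and 10 of 51 assembly factors (-0.144). In the shortest of 5 classes of summed exon length, other coding genes had a median of -0.09 and members -0.136. The test of the difference between the sexes' responses called 8 members, all with a lower log2 response in female cells, against 1.55% of all genes called lower and 2.55% in either direction. They were Ndufa2, Ndufa8, Ndufb7, Ndufs6, Cox7a2l, Atp5e, Atp5h and Atp5k. This test uses the same fresh libraries as the test between fresh cells of the sexes, so the results are not independent. Ndufa2, Ndufb7, Cox7a2l and Atp5e were called in both. Ndufb7 measured 85.1 and 87.8 CPM in female monocultures and 132 and 122 CPM in female fresh cells. In male cells it measured 93.9 and 92.6 CPM in monoculture and 78.6 and 75.9 CPM fresh. The female-minus-male difference in response was -0.84 ± 0.11 on the log2 scale (adjusted p = 0.00394), and the directions were opposite in the sexes. Atp5k, subunit e of the synthase, showed -0.85 ± 0.17 (adjusted p = 0.016), and Atp5e -0.81 ± 0.16 (adjusted p = 0.0144). In the fit with the replicate number as a block, and in the 8 NK libraries alone, the count was 5. Median-ratio scaling called 1 higher and 6 lower, no filter on low counts 2 and 4, and DESeq2 3 and 9. Over all genes these settings called 417 and 265, 448 and 359, and 901 and 551, against 215 and 331 in the main fit. With each library left out in turn the lower count was 1 to 9. It was 1 without fresh male library 5, 2 without fresh female library 1, 3 without monoculture female library 2, 4 without monoculture male library 5, and 5 without monoculture female library 1, co-culture female library 1 or either co-culture male library. Without fresh female library 2 it was 9, with 5 members higher. Cox7a2l lost its call in most of these settings (adjusted p up to 0.178).

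Values that moved with the sex contrasts include other cell types and the summed exon length of genes. In fresh cells, neutrophil markers summed to 23.7 and 75.8 CPM in females, against 172 and 471 CPM in males, and B and plasma cell markers to 36.8 and 41.1 CPM, against 61.4 and 107 CPM. The part of these cells in the sex results was not tested. Among other coding genes, the median log2 fold change of the response difference was -0.13 in the shortest of 5 equal length classes and 0.12 in the longest. Of the 80 members, 59 fall in the shortest class, where their median was -0.20. Of 74 cytosolic ribosomal protein genes, 18 were called lower and 0 higher in that test. The part of summed exon length in the members' result was not tested.

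Co-culture with Panc02 was compared with Panc02 alone. Differences in subunit transcripts were small: 5 members rose and 1 fell of 77 tested, against 12.2% and 6.12% of all genes. In CPM, all co-cultures lay above both Panc02 libraries in 9 members and below them in 6, against 14.9% and 22.7% of all genes. Ndufb10 measured 81.7, 89.4, 89.5 and 89.5 CPM in co-cultures and 80.8 and 80.6 CPM in Panc02 alone (log2 fold change 0.17 ± 0.049, adjusted p = 0.0192). Uqcr10, Cox5b, Cox6a1 and Atp5d rose by 0.16, 0.14, 0.12 and 0.11. The core subunit Ndufs1 measured 96.9, 102, 102 and 104 CPM in co-cultures and 115 in both Panc02 libraries, and fell by 0.13 (adjusted p = 0.0431). Ndufb10, Uqcr10, Cox5b, Cox6a1 and Ndufs1 each lost the call without either Panc02 library (adjusted p 0.0709 to 0.257). Leaving out any of the 6 libraries moved at least 1 of the counts by more than 1.5 times: the higher count was 0 to 12 and the lower count 0 or 1. Without Panc02 library 1 both were 0, and without co-culture female library 1 they were 12 and 0. Between co-cultures with female and male NK cells no member passed the test (0 of 77, and 0 by DESeq2). Of all genes, 0.985% were called higher and 0.154% lower (1.14% in all). At an unadjusted p below 0.05 in edgeR's test were 11 members, beside 2119 of all 18172 genes tested.

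Cox6a2 allows a look at the NK part of the mixture, since Panc02 alone had 0 counts. Co-cultures with female NK cells held 0 and 4 counts (0 and 0.0855 CPM), and those with male NK cells 10 and 0 counts (0.291 and 0 CPM). Relative to monocultures of the same sex, the library with 10 counts stood at 0.377% (exact Poisson upper limit 0.694%), and the upper limits of the others were 0.105% to 0.31%. The NK markers in the same libraries stood at 1.87% to 3.66% of monoculture. Had Cox6a2 kept the markers' share, 1.44 to 2.58 CPM would be present. All 4 co-cultures lie below that level, beyond counting error. This comparison was not made with a replicated test. Cox6b2 and Ndufa4l2 had at most 2 counts in any co-culture.

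Tumours were then compared with the line they came from. Allografts rose in 53 members and fell in 5 of the 81, or 65.4% and 6.17%, against 38.8% and 23.3% of all 23264 genes tested (62.1% called in all). In 46 members all tumours lay above both Panc02 libraries and in 9 below, against 36.5% and 25.9% of all genes. The median log2 fold change of the members was 0.66, against 0.42 over all genes. The higher members lay in every complex: 28 of 37 in complex I, 2 of 4 in complex II, 4 of 8 in complex III, 12 of 15 in complex IV and 7 of 17 in complex V. The members counted here include Ndufa4l2, Cox7a1 and Cox8b, which passed the CPM limit only through the allografts.

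The largest rises among widely expressed members were in small subunits. Ndufb4 measured 97.6, 94.9, 89.2 and 97.4 CPM in female hosts and 69.7, 57.7, 64.9 and 69.4 CPM in male hosts, against 21.1 and 21.9 CPM in cultured Panc02. Its log2 fold change was 1.94 ± 0.125 (adjusted p = 5.58e-07), and every allograft lies above the line. Atp5e measured 283, 244, 357 and 303 CPM in female and 227, 156, 193 and 205 CPM in male hosts, against 66.7 and 69.3 CPM (1.89 ± 0.18, adjusted p = 8.31e-06). Ndufb2 and Ndufb11 rose by 1.65 and 1.54. Cox4i1, a regulatory subunit of complex IV, rose by 1.09 ± 0.14.

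The members that fell were 5. Atp5b, the catalytic subunit of the synthase, measured 818, 1016, 924 and 953 CPM in female and 930, 856, 872 and 916 CPM in male hosts, against 1608 and 1609 CPM in cultured Panc02. It fell by 0.76 on the log2 scale (SE 0.11, adjusted p = 0.000141), while its complex had 7 members higher. Ndufs1, with a summed exon length of 8086 bases the longest member, fell by 0.80 (SE 0.16, adjusted p = 0.00124). Cox8a fell by 0.42, Uqcrc1 by 0.41 and Sdhd by 0.35. Sdhd, Cox8a and Uqcrc1 lost their calls without either Panc02 library (adjusted p 0.0846 to 0.143). Of the 7 core subunits of complex I 2 rose and 1 fell, and of the 12 core subunits of the other complexes 4 rose and 3 fell, beside 38.8% higher and 23.3% lower over all genes tested. The rise of Ndufs3 (0.33 ± 0.129, adjusted p = 0.0445) lost its call with median-ratio scaling (adjusted p = 0.0783), without a filter (0.187), with DESeq2 (0.126), without either Panc02 library (0.279 and 0.121) and without any 1 of 5 allografts (0.0582 to 0.0982). Of 16 citrate cycle genes 10 fell and 0 rose, with the pyruvate dehydrogenase subunit Dlat (-1.18 ± 0.10) and citrate synthase Cs (-0.96 ± 0.12) among them. Of 16 regulators 14 fell and 0 rose, including Pprc1 (-1.71 ± 0.12) and Myc (-1.60 ± 0.12).

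Restricted isoforms were those with the highest fold changes in allografts. Ndufa4l2, Cox7a1 and Cox8b lay under 1 CPM in every library outside the allografts. They are members only through the allografts, so their rise there is not independent of their choice. Ndufa4l2 measured 14.9, 13.2, 18.6 and 19.1 CPM in female hosts and 23.5, 15.2, 24.3 and 33.6 CPM in male hosts, against 0.0213 and 0.0475 CPM in cultured Panc02, where it had 3 counts in all. The ratio of these levels was 602, with a counting interval of 206 to 2920. Of 11 hypoxia-response genes 5 rose and 1 fell, beside 38.8% higher and 23.3% lower over all genes tested. Their log2 fold changes had a median of 0.46, with Car9 (4.71 ± 0.725) and Ndrg1 (3.00 ± 0.485) highest and the glucose transporter gene Slc2a1 lowest (-0.93 ± 0.19). Cox6a2 measured 8.57, 129, 26 and 177 CPM in female hosts and 16.8, 2.76, 57.6 and 17.6 CPM in male hosts. Cox8b measured 3.62, 37.1, 9.33 and 77.5 CPM in female and 5.49, 1.14, 21.5 and 9.13 CPM in male hosts. Both had 0 counts in cultured Panc02. The mean of Cox6a2 over the allografts (54.5 CPM) was at least 1610-fold higher than a floor of 3 counts over the Panc02 group (0.0337 CPM). Single tumours ran from 2.76 to 177 CPM, so this bound holds for the mean and not for each tumour. Both lost their calls without either Panc02 library (adjusted p 0.0602 and 0.063 for Cox6a2, 0.067 and 0.07 for Cox8b). For both genes the 3 highest tumours are those with the highest summed muscle markers (44691, 26997 and 12672 CPM), and the part of muscle RNA in their levels was not tested. Cox7a1, another muscle isoform, reached 47.4 CPM in the tumour with the most muscle marker RNA (3.61 ± 1.29, adjusted p = 0.0357). Its call was lost without a filter on low counts (adjusted p = 0.103), without allograft 8 of male hosts (0.0522) and without either Panc02 library (0.146 and 0.197).

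Without the 3 tumours of highest muscle markers 54 members were called higher and 8 lower, against 53 and 5 with all tumours. Without cultured Panc02 library 1 the counts were 40 and 2, without library 2 they were 44 and 2, and without allograft 4 of female hosts they were 54 and 8. Fold changes also ran with summed exon length in this comparison. Among other coding genes the median log2 fold change was 0.91 in the shortest of 5 length classes and -0.20 in the longest, and 51.2% of the shortest class were called higher. The 60 members in that class had a median of 0.71, below that of other genes of like length, and 43 were called higher. Of 75 cytosolic ribosomal protein genes 58 rose (median 0.78), while 19 of 78 mitochondrial ribosomal protein genes rose and 22 fell. The part of length in the members' result was not tested.

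**Figure D4:**
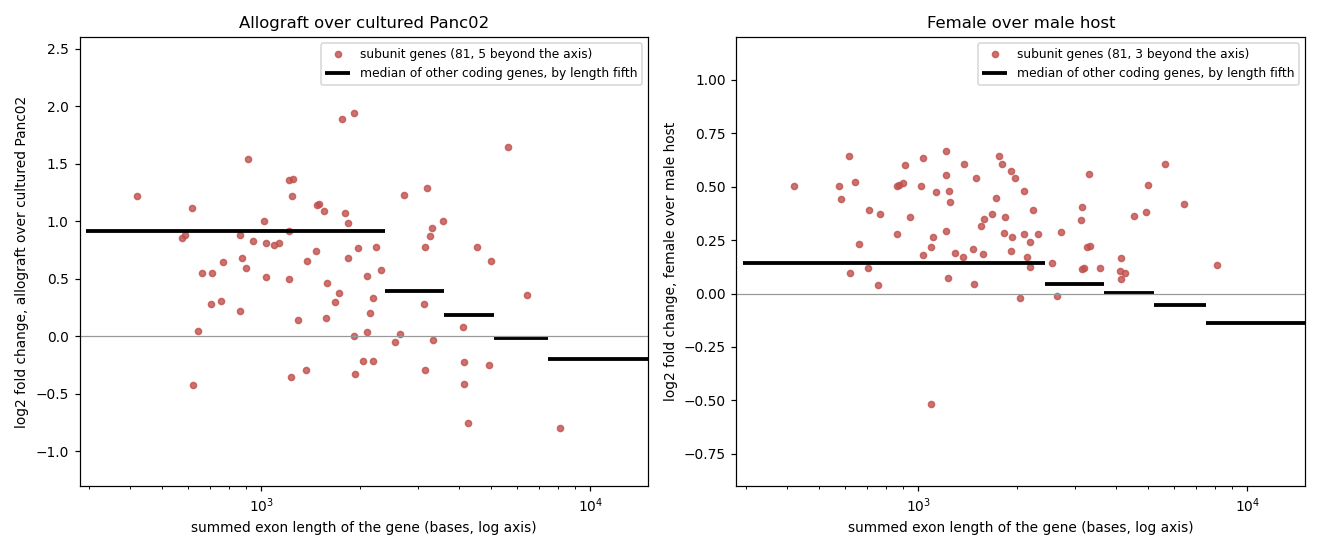
Log2 fold change of each member against its summed exon length (log axis), for allografts over cultured Panc02 (left) and female over male hosts (right). Black lines give the median of other coding genes in each of 5 length classes: 0.91 in the shortest and -0.20 in the longest on the left, 0.14 and -0.14 on the right.

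The last tumour comparison asks whether the sex of the host matters. Female-host tumours had a higher fitted level in 78 of 81 members, but none passed edgeR's quasi-likelihood test (0 called, with 44 at an unadjusted p below 0.05). Over all 20560 genes tested, 54.5% had a positive fold change and 0.0146% were called, and 3087 were at an unadjusted p below 0.05. The members' median log2 fold change was 0.35, against 0.04 over all genes. It was 0.26 to 0.39 with each tumour left out in turn and 0.35 without the 3 tumours of highest muscle markers. In 27 members all 4 female-host tumours lay above all 4 male-host tumours, against 2.61% of all genes tested. In 0 members they lay below, against 7.06% of all genes.

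Ndufb11 measured 168, 176, 165 and 152 CPM in female hosts and 116, 98.7, 118 and 116 CPM in male hosts. Its log2 fold change was 0.60 ± 0.10, with an adjusted p of 0.19 by edgeR and 0.00172 by DESeq2. Atp5k measured 136, 119, 127 and 121 CPM in female and 91.9, 65.9, 87.8 and 84.8 CPM in male hosts, again without overlap. Cox7b measured 249, 191, 211 and 192 CPM in female and 146, 131, 151 and 163 CPM in male hosts. DESeq2 called 13 members higher and 0 lower, against 1.1% of genes called higher by it: Ndufa4, Ndufa5, Ndufa6, Ndufb2, Ndufb4, Ndufb11, Ndufs6, Cox7b, Cox7c, Atp5e, Atp5j2, Atp5k and Atp5o. The tool thus decides whether any member is called. The exceptions to the direction were Ndufa4l2 (-0.52 ± 0.24), Ndufv1 (-0.01) and Atp5s (-0.02).

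Other gene groups had values that ran with this contrast. Of 75 cytosolic ribosomal protein genes 69 had a positive fold change (median 0.23), and of 78 mitochondrial ribosomal protein genes 65 (median 0.14). Of 16 citrate cycle genes 13 were positive (median 0.12), while all 11 hypoxia-response genes were negative (median -0.67); none of these was called by edgeR. By length, other coding genes had a median of 0.14 in the shortest class and -0.14 in the longest, while the 60 members of the shortest class had 0.37. The part of these values in the members' result was not tested.

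**Figure D5:**
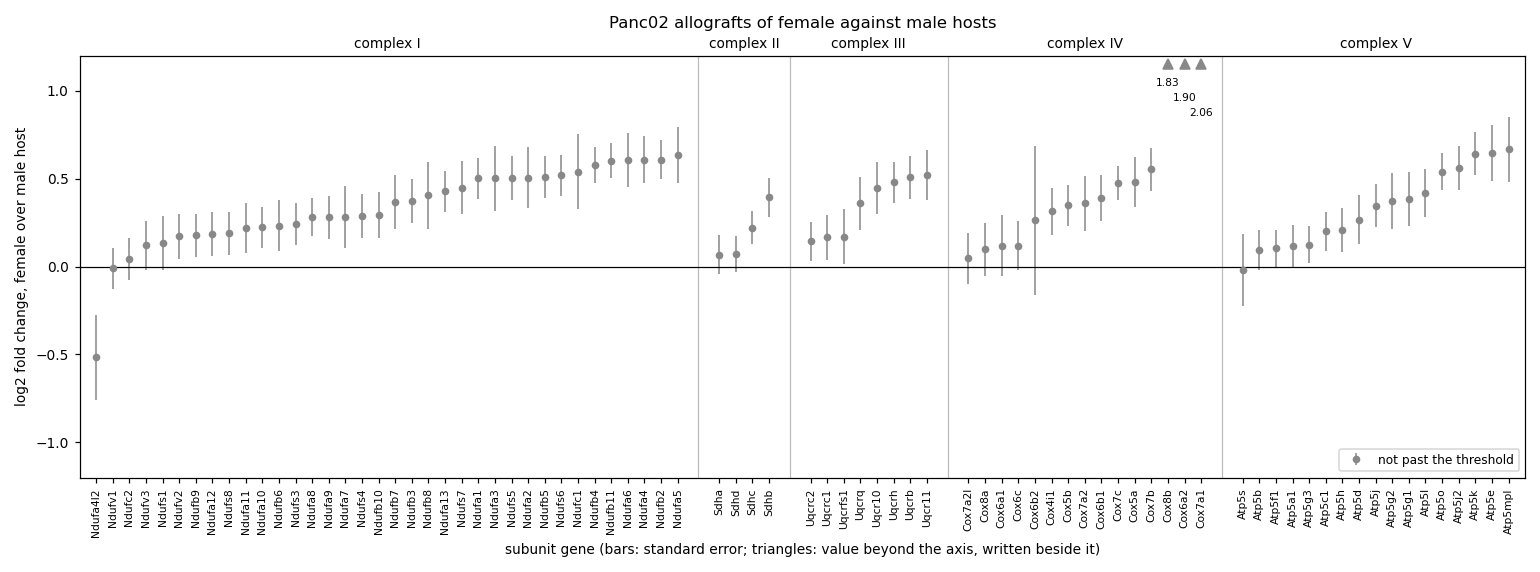
Log2 fold changes of members in allografts of female over male hosts, by complex and sorted, with SE bars; none passed the threshold in edgeR's test. Nearly every point lies above 0, with Ndufa4l2 (-0.52) the lowest, and Cox7a1 (2.055), Cox6a2 (1.90) and Cox8b (1.83) lie beyond the axis.

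Finally, NK cells were set beside the tumour line; both comparisons share the 2 Panc02 libraries. Monocultures were higher in 16 and lower in 41 of 80 members than cultured Panc02, against 38.1% and 32.9% of all 21334 genes (71.1% in all). Their libraries lay wholly above Panc02 in 17 members and below in 55, against 38.2% each of all genes. Fresh cells were higher in 15 and lower in 42, against 37.4% and 32.4% (69.9% in all). Theirs lay wholly above in 17 and below in 40, against 39.1% and 34.4%. The members' medians were -0.25 and -0.31, against 0.14 and 0.10 over all genes. The beta subunit Atp5b, at 542 to 615 CPM in monocultures and 798.4 to 877 CPM in fresh cells against 1608 and 1609 CPM in Panc02, fell by 1.39 and 0.96. In complex V 13 of 17 members were lower in monocultures and 12 in fresh cells. Uqcr11 fell by 1.78 in monocultures and 1.01 in fresh cells, and the c-ring gene Atp5g3 by 1.26 and 1.07. The accessory subunits Ndufb7, Ndufa1 and Ndufb11 went against their complex: Ndufb7 rose by 0.86 in monocultures and 0.90 in fresh cells, Ndufa1 by 0.95 and 0.545, and Ndufb11 by 1.03 and 0.505. Cox6a2 and Cox6b2 had 0 counts in Panc02. Against a floor of 3 counts, the mean of Cox6a2 was at least 2190-fold higher in monocultures. That of Cox6b2, a member only through the fresh libraries, was at least 727-fold higher in fresh cells.

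Levels of different genes can be compared only per length, as TPM. TPM is a gene's counts divided by its summed exon length and scaled to a common total. Cox8a had the highest mean in female monocultures (763 ± 9.77 TPM), female fresh cells (658 ± 204 TPM) and cultured Panc02 (1405 ± 23.8 TPM; SD, n = 2 each). In female fresh cells Cox6a1 stood at 642 ± 36.7 TPM, which does not differ from Cox8a beyond their spread. In allografts of female hosts Cox6b1 stood at 803 ± 37.2 and Cox8a at 789 ± 103 TPM (SD, n = 4), which do not differ beyond their spread. Atp5b stood at 411 ± 23.4 TPM in female monocultures, 582 ± 31.7 in female fresh cells, 518 ± 80.8 in allografts of female hosts and 1146 ± 0.79 in cultured Panc02. In monocultures of female cells the lowest widely expressed members were Ndufb2 at 3.49 and Ndufb8 at 6.07 TPM. Their summed exon lengths were 5628 and 3146 bases. Such a length can exceed that of the transcript in use, which was not measured, and this limits ranks between genes. Multi-mapping reads were counted, so reads of processed pseudogenes and close paralogs may add to or be shared with these values. On the same strand, exons of other genes overlap exon bases of 5 members, by at most 19.5% of their length (Ndufb9).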

How the data were processed

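Labels put the 22 libraries into 9 groups. The authors deposited unnormalized counts of reads by gene. The submitters' processing notes name featureCounts 2.0.6, HISAT2 2.2.1, cutadapt 4.4 and SAMtools 1.19.2, and the build GRCm39. Per the file headers, exons of Ensembl release 113 were counted with reverse strand (setting 2), mates were counted singly and multi-mapping reads were included; between 66.4% and 78.6% of genes with 1 to 20 counts had an even count, against 50% by chance. Total counts were 13025549 to 46842646 per library. The labels do not say that each library is a separate animal, so p-values measure only the spread between these samples, which may be technical. The gene lengths deposited by the authors in the same tables (another unit, in bases) served for TPM.

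Symbols came from a GENCODE table for GRCm38, which matched 51498 of 78298 IDs. CPM values are counts over a library's total of gene counts, summarised as mean ± SD. Tests used edgeR 4.0.16 in R 4.3.3 (quasi-likelihood F-test, robust, TMM, filterByExpr), adjusted by Benjamini-Hochberg over all genes tested, threshold 0.05; SE is the fold change over the square root of F. The 12 NK and co-culture libraries shared 1 fit of 6 group means (21414 genes, biological coefficient of variation 0.127). Co-cultures with Panc02 (18172 genes, 0.0601), allografts with Panc02 (23264, 0.372), allografts alone (20560, 0.363) and NK cells with Panc02 (21334, 0.136) were fitted separately. Tests were checked on simulated counts. DESeq2 1.42.0, other scaling, no filter, smaller fits, a replicate block and leaving out each library were alternatives. The members and gene lists were chosen with earlier results of these data known. Named were core subunits, isoforms, in each direction the 4 called members with the largest change at 5 CPM or more, up to 3 called against their complex, and up to 3 called genes per pathway list. Further genes in the host sex comparison, where none was called, and single members that moved against others were chosen after their values were seen. Promoter windows are RefSeq's. Some single-gene values are not reported here.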

Additional observations from a re-analysis of the deposited data

Results flagged for a closer look

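In allografts of female hosts, 1 tumour lay far from the other 3 in the summed level of complex I. The 4 sums ran from 3519 to 3706 CPM, and the gap of the lowest to its nearest neighbour was 0.869 of the whole range, above the critical value of 0.829 for 4 samples. In all, 54 groups of values were examined this way, of which chance flags about 5%. For 8 members the response to monoculture differed between NK cells of female and male mice by the interaction test. That test shares its fresh libraries with the test between fresh cells of the sexes. The female-minus-male differences on the log2 scale were -0.848 for Atp5k, -0.842 for Ndufb7, -0.808 for Atp5e, -0.788 for Ndufa2, -0.687 for Ndufs6, -0.536 for Ndufa8, -0.521 for Atp5h and -0.503 for Cox7a2l.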

How the results depend on the processing

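Of 129 calls of named members, 37 were lost in at least 1 setting, 14 of them in a setting other than leaving out a library, and 0 named values changed sign while called. Female against male fresh cells gave 4 members higher and 16 lower without a filter on low counts, 5 and 4 in the fresh libraries alone, and 3 to 10 and 1 to 17 with each library left out. Over all genes, no filter gave 562 higher and 2521 lower between fresh cells of the sexes, against 947 and 1202 in the main fit. Between monocultures of the sexes, no filter gave 1 member lower and a median of -0.19, against 144 lower and a median of -0.02 over all genes. The sex difference of the response gave 1 higher with median-ratio scaling, 2 higher and 4 lower without a filter, 3 higher with DESeq2, 5 lower in the 8 NK libraries alone, and 0 to 5 higher and 1 to 9 lower with each library left out. Co-culture against Panc02 gave 3 higher without a filter, 2 higher and 0 lower with DESeq2, and 0 to 12 higher and 0 to 1 lower with each library left out. Over all genes, co-culture against Panc02 gave 2157 higher and 1226 lower without a filter, and 1815 and 700 with DESeq2. The median between co-cultures of the sexes was -0.071 to -0.006 with each library left out. Allograft against Panc02 gave 8 lower without the 3 tumours of highest muscle markers, an alternative chosen after seeing the data, and 2 to 8 lower with each library left out. Over all genes, allograft against Panc02 gave 8545 higher and 5314 lower without those 3 tumours. Host sex gave 13 members higher with DESeq2, against 236 over all genes. Monoculture against Panc02 had a median of -0.302 with median-ratio scaling and with DESeq2. With TMM-scaled library sizes the summed levels were 6429.1 and 6985 in female and male monocultures, 6804.5 and 6851 in fresh cells, 10679 and 10905 in co-cultures, 13452 in allografts of female hosts and 9503.1 in Panc02. The cause of these shifts was not tested. Monoculture against fresh cells gave 15 members higher and 26 lower with median-ratio scaling, against 4043 and 5035 over all genes.

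The labels give the same sample numbers to fresh, monoculture and co-culture libraries. Deviations of same-numbered libraries from their group means correlated at 0.002 to 0.074. With 2 libraries per group the deviations mirror each other, so these values cannot decide whether equal numbers mark a common source. With the replicate block, 17 members were higher and 20 lower in monoculture against fresh cells, and 5 were lower in the sex difference of the response. Depth limits genes with few counts, such as Ndufa4l2 in NK cells and Cox6a2 in co-culture.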
